A study of Capitella teleta with 10 samples.

Results

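The most abundant transcripts of the stage 7 larva of the marine annelid *Capitella teleta* were compared with those of its 64-cell embryo, to find which of them remained, which were lost or gained, and between which stages this happened. The features are transcript models of a genome annotation. They were ranked by their mean normalized read count over both libraries of a stage, and the 100 and the 1000 most abundant features of each stage were listed. A feature in both lists is called shared, one in the stage 7 list alone gained, and one in the 64-cell list alone lost. The comparison rested on 4 of the 10 RNA sequencing libraries, 2 of stage 7 and 2 of the 64-cell stage, and the 6 libraries of the gastrula, stage 4tt and stage 5, 2 per stage, gave the timing. In the labels, stages 5 and 7 are larvae and the earlier stages, 4tt included, are embryos. All came from zygotes taken out of brood tubes and kept in artificial sea water with antibiotics, and no genotype or treatment separates the groups. Of 41221 features, 35526 had a value above 2 in at least 2 libraries and were tested.

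Animal eggs are loaded with RNA made by the mother, and the first cleavages run largely on this store. The embryo then begins to transcribe its own genome while maternal RNA is degraded, so an abundant early transcript can persist, be replaced by newly made copies, or disappear. *C. teleta* cleaves spirally inside the brood tube and forms a larva that does not feed and lives on yolk. With 1 exception the identifiers carry no gene names, and 0 of them matched a reference list of 31977 *C. teleta* genes, so members are described by rank, level and timing, without roles or sequences. Ranks are on reads and not per transcript length, so a rank describes a share of the sequenced library and not a number of molecules. In bulk RNA, fewer cells of a type and less RNA per cell cannot be told apart.

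The deposited values sum to 34232727 and 32883200 in the stage 7 libraries, against 55846793 and 52969002 in the 64-cell libraries. A different scaling therefore shifts most fold changes nearly alike, and less so those with low values, to which 1 was added before the log. It leaves the order of features within a library as it is. Lists by stage means can change slightly. Ranked on mean share of the library total, the top 100 lists shared 41% as before and the top 1000 lists 48.6% instead of 48.4%. How concentrated the libraries were depended on the measure. The features that hold 50% of the counts numbered 660 and 653 at stage 7, against 531 and 616 at the 64-cell stage. For 90% of the counts they numbered 7838 and 7993 at stage 7 and 4956 and 5159 at the 64-cell stage, so that both stage 7 libraries lay above both 64-cell libraries on each of these measures. The 100 most abundant features of each library, in contrast, held 28.4% and 29.3% of the stage 7 libraries and 27.4% and 24.4% of the 64-cell libraries. The single most abundant feature took 1.22% and 1.34% of the stage 7 libraries and 3.54% and 2.68% of the 64-cell libraries. The study calls its duplicates biological replicates. It describes paired samples within replicates for another annelid, *Owenia fusiformis*, and for *C. teleta* says only that duplicates were collected likewise. Nothing in the sources says whether replicates came from separate broods, so the errors and p values here measure the spread between these samples.

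Of the 100 most abundant features at stage 7, 41 were also among the 100 most abundant at the 64-cell stage, so 59 were gained and 59 were lost. Single libraries gave the error of this count. The lists of both stage 7 libraries shared 94 features and those of both 64-cell libraries 90, whereas the 4 pairs of a stage 7 and a 64-cell library shared 42, 38, 40 and 36. Every pair between the stages was far below both pairs of replicates. Membership of the gained features was the same in all 4 single libraries for 54 of 59, that of the lost features for 52 of 59 and that of the shared features for 36 of 41.

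The longer lists turned over to a similar degree. At stage 7 the top 1000 held 484 of the 64-cell top 1000, with 516 features gained and 516 lost. Replicate libraries shared 917 features at stage 7 and 924 at the 64-cell stage, and the 4 pairs between the stages shared 481, 469, 476 and 464. The heat map of library overlaps shows that the 64-cell libraries stood apart from all 8 later libraries and not from stage 7 alone. By stage means, the stage 7 top 100 shared 80 features with the gastrula list, 89 with that of stage 4tt and 89 with that of stage 5. The 64-cell top 100 shared 43 with the gastrula, 42 with stage 4tt and 41 with stage 5.

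**Figure D1:**
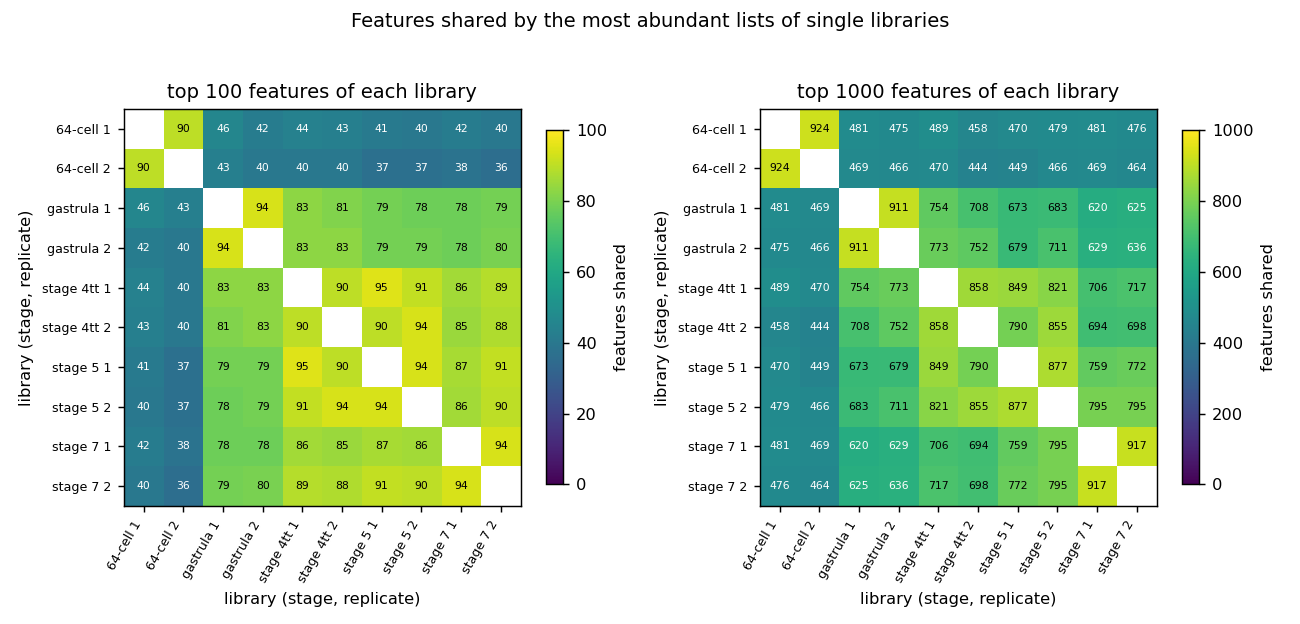
Number of features shared by the most abundant lists of each pair of libraries (rows and columns: stage and replicate, in developmental order; left, top 100; right, top 1000; colour: features shared). The 64-cell libraries shared 36 to 46 of 100 features with any later library, against 90 with each other and 94 between the stage 7 libraries.

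List ends are arbitrary, and the values on both sides of them were close. At stage 7 the feature of rank 100 had a mean of 44207 and that of rank 101 a mean of 43948, whereas at the 64-cell stage they had 54793 and 54751. At rank 1000 and 1001 the means were 4458 and 4457 at stage 7 and 9953 and 9949 at the 64-cell stage. The ranks a feature took at the other stage were therefore used to separate small shifts across a list end from large ones.

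Gained top 100 features had mostly been abundant before. Of the 100 features in the stage 7 list, 41 ranked within 100 at the 64-cell stage, another 53 between 101 and 1000, and 6 past 1000. Lost features fell further. Of the 100 in the 64-cell list, 34 ranked between 101 and 1000 at stage 7, 11 between 1001 and 5000, 4 between 5001 and 10000, 5 between 10001 and 20000 and 5 past 20000. The gained features had a median rank of 63 at stage 7 and 211 at the 64-cell stage, while the lost ones had a median rank of 555 at stage 7 and 55 at the 64-cell stage. In the top 1000 the classes were closer, with 175 gained features past rank 5000 at the 64-cell stage and 195 lost features past rank 5000 at stage 7. Past rank 20000 there were 26 gained and 69 lost features.

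**Figure D2:**
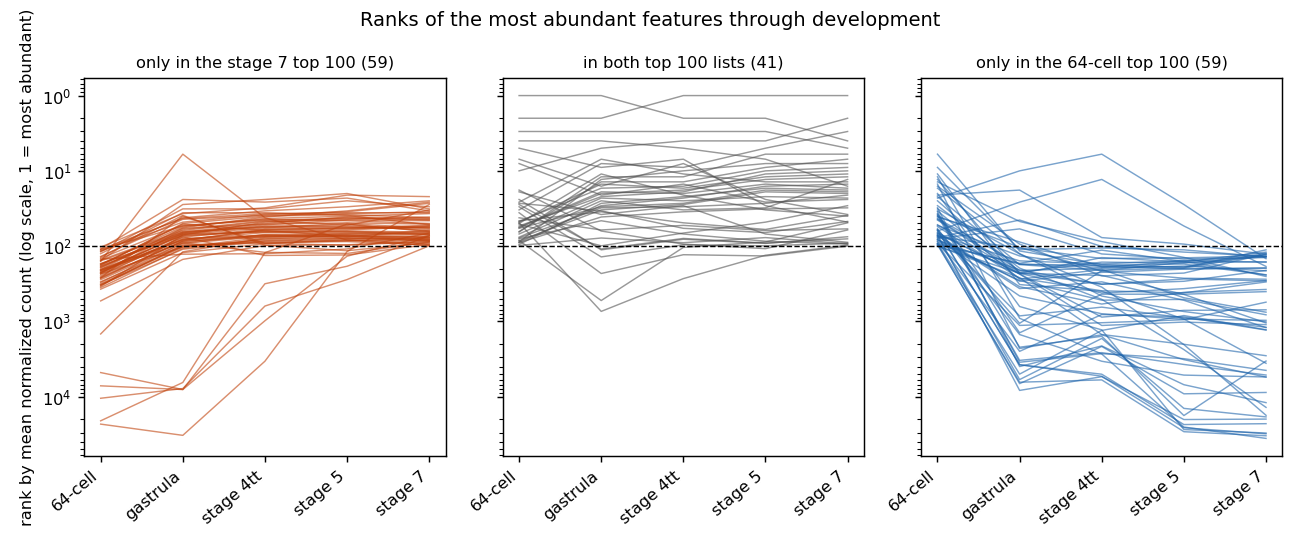
Rank by mean normalized count (log scale, 1 is the most abundant) of every feature of the stage 7 or 64-cell top 100 at the 5 stages, 1 line per feature; left, the 59 gained; middle, the 41 shared; right, the 59 lost; the dashed line marks rank 100. Most gained lines start just below the dashed line and cross it at the gastrula, 6 start past rank 1000, and 25 lost lines end past rank 1000.

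Fold changes were tested with limma on log2(value + 1) across all features, and a call required an adjusted p under 0.05 and a log2 fold change above 1 in size. Over all features tested 28.2% were called higher and 20.4% lower at stage 7. Because the lists were ranked on values of the same contrast, the counts of called members describe the lists and are no test of them. Of the gained top 100 features 38 were called higher, none lower, and 21 had no call. Their median log2 fold change was 1.08, beside 0.38 over all features. Of the lost top 100 features 55 were called lower and 4 had no call, with a median of -3.49.

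Scaling decides part of these calls. When libraries were scaled again by median ratios, the median over all features was 0.20 and 16 gained and 59 lost features were called. With a fixed total per library the median over all features was 0.98 and 57 gained and 50 lost features were called. The medians of the gained features were then 0.87 and 1.78 and those of the lost features -3.70 and -2.79, moving with the median of all features.

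To keep the noise of the ranking libraries out of the differences, lists were ranked on the libraries of one replicate number and measured in the libraries of the other. Members were still picked for a high level at one of the compared stages, so the sign of their difference is no independent result. The top 100 of stage 7 replicate 1 had a median log2 difference of 1.09 between the replicate 2 libraries of stage 7 and the 64-cell stage, and the list of replicate 2 had 0.88 in the replicate 1 libraries. Over all tested features these differences were 0.35 and 0.28. For the 64-cell top 100 the same values were -1.69 and -2.12. The stage 7 top 1000 did not stand out in this way, at 0.27 and 0.30, whereas the 64-cell top 1000 had -2.19 and -2.14.

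Most gained features moved by a similar, modest amount. The 53 that came from ranks 101 to 1000 had log2 fold changes between 0.13 and 1.83, with quartiles at 0.86 and 1.20, and 32 of them were called higher. They had medians of 74074 and 74839 in the stage 7 libraries, against 37204 and 32770 in the 64-cell libraries. Among these 53, features that ranked high at stage 7 also tended to rank high at the 64-cell stage (Spearman's rho 0.62 across features, which are not independent replicates and share their 4 libraries). As a block they held 11.4% and 11.8% of the stage 7 libraries, against 3.65% and 3.36% of the 64-cell libraries.

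The other 6 gained features came from far below. Their fold changes ran from 2.93 to 12.87 on the log2 scale, and all 6 were called higher under each of the 3 scalings. The feature with the highest stage 7 level among them was CTELG00000002039.1, which ranked 28 at stage 7 and 23134 at the 64-cell stage. Its values were 119010 and 101560 in the stage 7 libraries, against 10.8 and 17.1 in the 64-cell libraries. In between it was at 0 and 1.25 in the gastrula libraries, at 1055 and 2655 in those of stage 4tt and at 46105 and 42657 in those of stage 5. Both replicates were near 0 at the gastrula, and the stage 4tt libraries lay far below those of stage 5. The log2 fold change was 12.87 (SE 0.48, limma, Benjamini-Hochberg adjusted p = 3.34e-07). Its gene has 2 models in the annotation, between which the pseudo-alignment could divide reads.

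CTELG00000025543.1, rank 64 at stage 7 and 20905 at the 64-cell stage, rose earlier. It had 80713 and 51303 at stage 7, against 10.1 and 34.7 at the 64-cell stage. The gastrula libraries had 536 and 1466, those of stage 4tt 40606 and 39688 and those of stage 5 137698 and 79975. It was thus highest in a stage 5 library, and the stage 7 and 64-cell libraries did not overlap (log2 fold change 11.66, SE 0.59, limma, adjusted p = 9.97e-07).

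The remaining 4 of the 6 ranked 72, 73, 81 and 99 at stage 7. Rank 99 belonged to a feature with 49266 and 40077 at stage 7 and 233 and 414 at the 64-cell stage. For rank 72 the values were 68807 and 49321 at stage 7 and 928 and 744 at the 64-cell stage, and for rank 73 they were 61248 and 54326 at stage 7 and 1908 and 1585 at the 64-cell stage. All 3 still had values between 433 and 982 in the gastrula libraries, and the climb ran from stage 4tt to stage 7, where all 3 entered the list. The feature of rank 81 differed, with 53064 and 56202 at stage 7, 7324 and 7043 at the 64-cell stage, and already 41443 and 48288 at the gastrula.

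The 59 lost features ended at levels between just below the list and 0, and they are described on either side of rank 1000, which marks no break in their levels. The 34 that ranked between 101 and 1000 at stage 7 had log2 fold changes between -4.19 and -0.90, and 30 of them were called lower. The 25 that ranked past 1000 had changes between -15.92 and -3.94, apart from 1 that is listed at 0 in both stage 7 libraries, and all 25 were called lower under each of the 3 scalings. With that feature included, 2 of the 25 had a value of 2 or less in both stage 7 libraries. At such values the size of a fall depends on the 1 added before the log. In the stage 7 libraries these 25 had medians of 1099 and 1158, against 76297 and 76969 in the 64-cell libraries. A median of 1.05% and 1.10% of the 64-cell mean was left in the stage 7 libraries.

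CTELG00000016272.1 was the most abundant of these 25 at the 64-cell stage, with rank 11, and ranked 3598 at stage 7. It had 1843 and 1535 at stage 7, against 221947 and 234432 at the 64-cell stage. The gastrula libraries had 23654 and 10926, those of stage 4tt 9422 and 11570 and those of stage 5 5389 and 4413. Its level was lower at each later stage by the mean of the libraries, with overlap between the gastrula and stage 4tt libraries alone. The log2 fold change was -7.08 (SE 0.31, limma, adjusted p = 5.52e-07).

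CTELG00000001773.1, rank 12 at the 64-cell stage, is listed at 0 in both stage 7 libraries, against 231590 and 214879 in the 64-cell libraries. Its gastrula libraries had 11752 and 3126, those of stage 4tt 4470 and 48.3 and those of stage 5 13.3 and 8.17. Replicate 1 was the higher library at all 3 middle stages, by the largest ratio at stage 4tt. It was called lower with an adjusted p of 2.25e-05 (limma), and no fold is given against values of 0. The deposited values were not whole counts, so the reads behind a 0 are unknown.

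Other lost features were most abundant in the middle of the series. One of rank 23 at the 64-cell stage had 24009 and 32488 at stage 7 and 153641 and 141897 at the 64-cell stage, but 299943 and 170421 at stage 4tt, where it ranked 6. Another, of rank 63 at the 64-cell stage, had 15673 and 21685 at stage 7 and 66375 and 72497 at the 64-cell stage, with 154133 and 217308 at stage 4tt, where it ranked 13. Both were above their 64-cell level in every stage 4tt library and left the top 100 only at stage 7.

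The shared features were reordered. Their median rank was 21 at stage 7 and 48 at the 64-cell stage, 25 of the 41 ranked better at stage 7 and 16 worse, and Spearman's rho between their levels at both stages was 0.07 across the 41 features, which span a narrow range of high levels, beside 0.52 across the 484 shared features of the top 1000 and 0.74 across all tested features in the same 4 libraries. Of these 41, 9 were called higher, 8 lower and 24 neither, with a median log2 fold change of 0.23. This split depended on the scaling, with 6 higher and 12 lower by median ratios and 20 higher and 1 lower with a fixed total. The widest climb in rank was that of the feature of rank 8 at stage 7 and 88 at the 64-cell stage, with 164585 and 167823 at stage 7 and 61818 and 55763 at the 64-cell stage. The widest drop was that of the feature of rank 89 at stage 7 and 19 at the 64-cell stage, with 51513 and 47187 at stage 7 and 203113 and 151230 at the 64-cell stage. The stage 7 and 64-cell libraries did not overlap for either feature.

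The 3 most abundant features of the 64-cell embryo stayed among the 5 most abundant at stage 7, at lower values. The most abundant feature of the 64-cell embryo had 242875 and 272906 at stage 7, where it ranked 4, against 1975284 and 1421111 at the 64-cell stage, and was called lower (log2 fold change -2.70, limma, adjusted p = 0.00147). The second had 417517 and 440594 at stage 7, where it ranked 1, against 1489155 and 973334 at the 64-cell stage (log2 fold change -1.49, limma, adjusted p = 0.0203). This call was lost with a fixed total (-0.79, adjusted p = 0.105), without 64-cell replicate 1 (adjusted p = 0.119) and without stage 7 replicate 1 or 2 (adjusted p = 0.0848 and 0.0729). The third, CTELG00000029350.1, ranked 5 at stage 7 and 3 at the 64-cell stage. It had 231251 and 261148 at stage 7, against 725729 and 467774 at the 64-cell stage, and the libraries did not overlap. Its log2 fold change of -1.25 (SE 0.49, limma, adjusted p = 0.0583) missed the threshold. It passed in 8 of 19 alternatives, among them median ratios (-1.46, adjusted p = 0.0270) and the fits without either stage 4tt library (adjusted p = 0.0327 in both cases) or either stage 5 library (adjusted p = 0.0415 without replicate 1 and 0.0414 without replicate 2). Its identifier and that of the most abundant 64-cell feature have adjacent numbers, and whether both models share sequence, so that reads could be divided between them, was not tested. The replicates of CTELG00000029350.1 differed widely at the stages between, at 535604 and 222687 for stage 4tt and at 547007 and 246028 for stage 5.

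CTELG00000005497.1 ranked 2 at stage 7 and 10 at the 64-cell stage. It had 332364 and 322331 at stage 7, against 247850 and 233216 at the 64-cell stage, and the libraries did not overlap. Its log2 fold change of 0.45 (SE 0.15, limma, adjusted p = 0.0348) was below the fold threshold. With a fixed total it was 1.14 and called higher, since its share of the library was then compared.

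The exit of the lost features was concentrated at the gastrula. By stage means, 51 of the 59 lost top 100 features (86.4%) were out of the list by the gastrula, followed by 4 at stage 4tt, another at stage 5 and the last 3 at stage 7, and none came back. In the single gastrula libraries, 49 of the 59 were out of both lists. All 25 features that ended past rank 1000 were already out at the gastrula. Of the 516 lost top 1000 features, 438 (84.9%) left at the gastrula, then 41 at stage 4tt, a further 16 at stage 5 and the last 21 at stage 7, and 18 of those that left at the gastrula reappeared at a middle stage. By the stage step with the largest fall, 37 of 59 and 419 of 516 fell most at the gastrula.

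Entry by rank was more spread over the stages, and later for features that started lower. Of the 59 gained top 100 features, 45 (76.3%) were in the list at the gastrula, then 8 entered at stage 4tt, another at stage 5 and the last 5 at stage 7. All 45 early entries came from the 53 that ranked between 101 and 1000 at the 64-cell stage, and of the other 6 none had entered by then, with 1 following at stage 4tt, 1 at stage 5 and the last 4 at stage 7. Of the 516 gained top 1000 features, 231 (44.8%) entered at the gastrula, then 93 at stage 4tt, a further 56 at stage 5 and the last 136 (26.4%) at stage 7. Split by 64-cell rank, 204 of the 341 features from ranks 1001 to 5000 entered at the gastrula, 24 of the 104 from ranks 5001 to 10000, and 3 of the 71 from past rank 10000. At stage 7 itself 46 of those 71 (64.8%) entered. A feature that starts lower has further to climb, so this order follows in part from how the groups were split. By the stage step with the largest rise, 54 of the 59 gained top 100 features (91.5%) and 324 of the 516 gained top 1000 features (62.8%) rose most at the gastrula. For the top 100 this share lay above that of the largest falls (62.7%), so which of both was more concentrated at the gastrula depended on the measure.

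**Figure D3:**
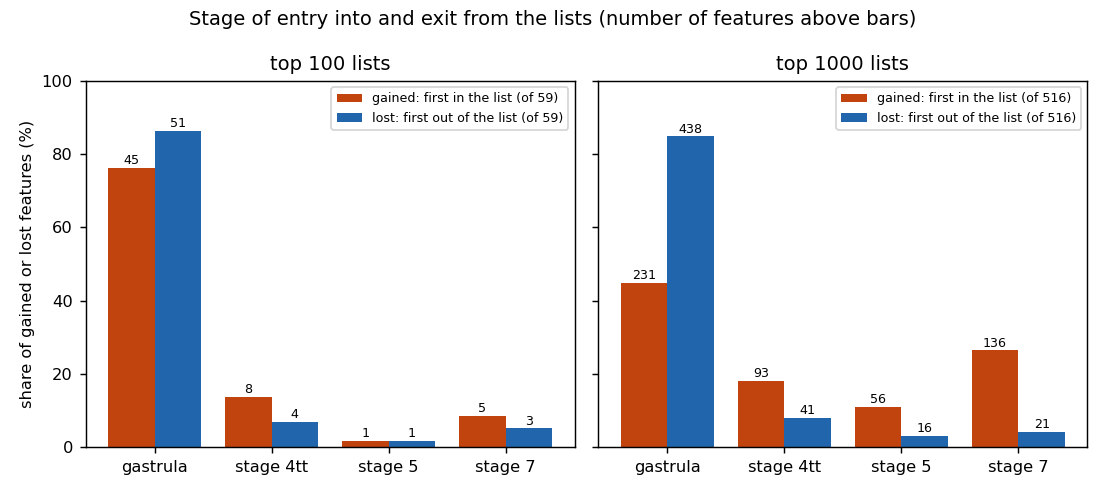
Share of gained features by the stage at which they first entered the list (red) and of lost features by the stage at which they first left it (blue), with the number of features above each bar; left, top 100 (59 gained, 59 lost); right, top 1000 (516 gained, 516 lost). The gastrula holds 84.9% of the exits but 44.8% of the entries in the top 1000.

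Shared features were mostly present throughout. In the top 100, 34 of 41 were in the list at all 5 stages, and in the top 1000, 377 of 484 were. Of the 41, 6 were out at the gastrula and 2 of them at all 3 middle stages. One of these, of rank 49 at stage 7 and 84 at the 64-cell stage, had 94361 and 71036 at stage 7 and 68270 and 52356 at the 64-cell stage, but 8815 and 14204 at the gastrula, where it ranked 528. Its gastrula libraries lay below all others of the series.

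The gained features held 12.7% and 12.9% of the stage 7 libraries, against 3.67% and 3.38% of the 64-cell libraries, and the lost features 2.23% and 2.14% of the stage 7 libraries, against 11.2% and 11.3% of the 64-cell libraries. The replicates were close at both ends. Across the 5 stages in developmental order, the gained features held mean shares of 3.52%, 9.43%, 12.0%, 14.4% and 12.8%, and the lost features mean shares of 11.3%, 4.10%, 3.44%, 2.62% and 2.18%. In the top 1000, the same means were 3.51%, 9.55%, 10.6%, 11.8% and 13.8% for the gained and 21.2%, 4.55%, 3.23%, 2.61% and 2.77% for the lost features. The 484 shared features of the top 1000 held 41.5% of the stage 7 libraries, of 55.3% in that list, and 38.6% of the 64-cell libraries, of 59.8% in that list.

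**Figure D4:**
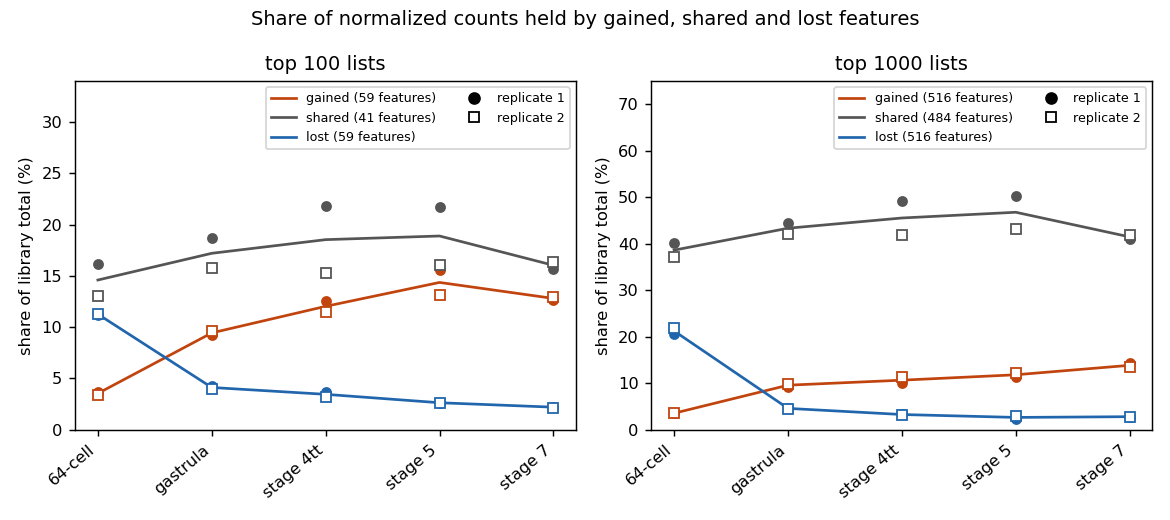
Share of the library total (%) held by gained (red), shared (grey) and lost (blue) features at the 5 stages; lines join the means of 2 libraries, filled circles are replicate 1 and open squares replicate 2; left, top 100; right, top 1000. The lost share drops and the gained share climbs most between the 64-cell stage and the gastrula, and the replicates of the shared class lie furthest apart at stages 4tt and 5.

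The top 1000 calls were uneven in the same direction. Of the 516 lost features all were called lower, at a median of -3.34, and the smallest fall was -1.26. The list ends set much of this, since the mean at rank 1000 was 9953 at the 64-cell stage and 4458 at stage 7. A lost feature thus had to fall in value, whereas a gained one could enter without a rise. With a fixed total 490 of the 516 lost features were called lower. Of the 516 gained features 279 were called higher, 4 lower and 233 neither, at a median of 1.24. The 4 called lower had entered the list with a fall in value, which is possible because the value at rank 1000 was lower at stage 7. They were not alone in this. Among the 516 gained features, 72 had both stage 7 libraries below both 64-cell libraries, and 405 had both above. Of the 484 shared features 54 were called higher, 252 lower and 178 neither, with a median of -1.08. With a fixed total this median was -0.38 and the split 107 higher and 110 lower.

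Of the lost top 1000 features, 115 ranked past 10000 at stage 7, and 18 of these had a value of 2 or less in both stage 7 libraries, 8 of them at 0 in both. In the other direction, 3 of the gained features are listed at 0 in both 64-cell libraries. The only identifier with a name, Capitella_post1, belonged to none of the lists. It had 39.3 and 42.1 at stage 7, where it ranked 20716, and is listed at 0 in both 64-cell libraries and the 6 between.

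The way down of the 115 differed between replicates. Their medians were 18768 in replicate 1 and 20244 in replicate 2 of the 64-cell stage and, in the same order, 641 and 377 for the gastrula, 663 and 52.2 for stage 4tt, 43.8 and 30.0 for stage 5 and 21.9 and 19.4 for stage 7. At stage 4tt 77 of the 115 were more than 2-fold higher in replicate 1 and 4 in replicate 2, at the gastrula 37 and 3, and at stage 5 29 and 5. At the ends there was no such lean, with 7 and 13 at stage 7 and 0 and 0 at the 64-cell stage. Over all tested features at stage 4tt the counts were 4873 in replicate 1 and 4585 in replicate 2. The 18 features at or under 2 at stage 7 had medians of 424 and 9.05 at stage 4tt, and replicate 1 was the higher library for all 18.

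Replicate 1 of stage 4tt thus held more of the transcripts that were on their way out than replicate 2 did. The lean was not confined to them. At stage 4tt 8 of the 41 shared top 100 features were more than 2-fold higher in replicate 1 and 0 in replicate 2. At stage 5 these counts were 9 and 0, at the gastrula 1 and 0, and at both ends 0 and 0. Below 2-fold, replicate 1 was still the higher library for 40 of the 41 at the 64-cell stage, against 26 at stage 7. At the gastrula it was higher for 16. Among the 484 shared top 1000 features the stage 4tt counts were 21 and 0, and among the 516 gained ones 18 and 15. Exit at the gastrula is set by the 64-cell, gastrula and stage 7 libraries alone. Without each of these in turn, 83.1% to 87.1% of the lost top 100 features and 83.3% to 86.0% of the lost top 1000 features were out at the gastrula. The share depended more on the list end. With features counted as out only past 2 times the list length, 64.4% of the lost top 100 and 66.5% of the lost top 1000 features were.

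**Figure D5:**
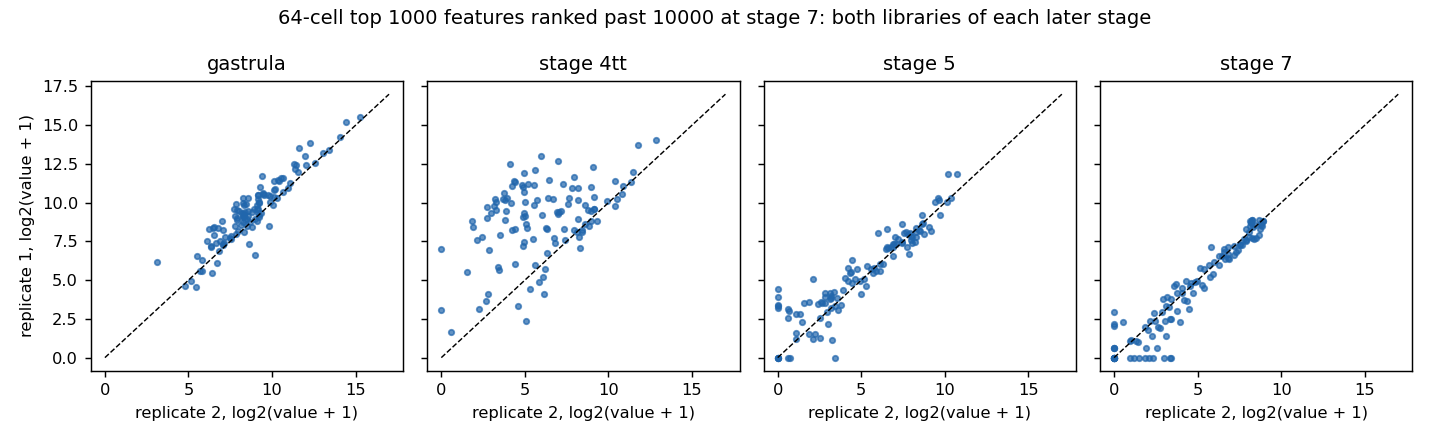
Replicate 1 (vertical) against replicate 2 (horizontal), both as log2(value + 1) of the normalized count, for the 115 features of the 64-cell top 1000 that ranked past 10000 at stage 7, at the 4 later stages; points are features and the dashed line marks equal values. At stage 4tt 77 features lie more than 2-fold above the line, against 7 at stage 7.

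Few features were replaced by another model of the same gene. Of the stage 7 top 100, 92 features were the only model of their gene, and of the 64-cell top 100, 96 were, beside 82.8% of all tested features. No gene had 1 model lost and another gained in either list length. In the top 1000, 3 gained features had another model of their gene in the 64-cell list and 2 lost features had another model in the stage 7 list.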

How the data were processed

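Duplicate libraries of 5 stages were analysed. The authors trimmed the reads with trimmomatic, used kallisto (v0.46.2) to pseudo-align them to gene models and DESeq2 (v1.30.1) to normalize the counts across stages. The models were a re-annotation of the soft-masked assembly held by Ensembl Metazoa. Deposited values are a signal in the form of normalized read counts per transcript model, not whole numbers, so the count test of the study could not be run on them and, although the study gives an approximate sequencing depth, the reads behind a single value are unknown. All 10 columns were matched to a sample by name, and 0 were left without one.

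Features above 2 in at least 2 of 10 libraries were kept. Values were transformed as log2(value + 1), which understates changes of low features, and fitted with limma (v3.58.1, R v4.3.3, mean-variance trend) to all 10 libraries with 1 coefficient per stage, without a replicate block. P values were adjusted over all tested features by the Benjamini-Hochberg method. The fit was tested on simulated data. Lists, ranks and shares carry no test and were obtained with pandas (v2.3.3) under Python (v3.11.15), with plots by matplotlib (v3.10.9). A feature left or entered a list at the first stage whose mean rank was past or within the list length.

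Identifiers were named by rule. Those that rose were the 2 of highest stage 7 mean among gained top 100 features that were called higher, ranked past 1000 at the 64-cell stage and did not overlap between the libraries, and those that fell were chosen likewise. Those that stayed were the 2 uncalled shared features whose worse rank was best. Features described by rank alone were chosen after their values were seen. The comparison, lists and rules were chosen with earlier results of these data known. Alternatives were other scalings, filters, pseudocounts, fold thresholds, list lengths and ranking rules, sums over the models of a gene, a replicate block, array weights, a fit of both stages alone and leaving out each library.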

Additional observations from a re-analysis of the deposited data

How the results depend on the processing

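No fold change of a named feature changed sign under any alternative. In many of them it could not. Other filters, a replicate block, array weights, the fit of both stages alone and leaving out a middle-stage library left each fold change as it was. Of 132 recomputed counts of calls 127 stayed within 1.5 times the reported count, 144 of 154 values of the lists and their timing stayed within that factor or, for shares, 1 SD of the replicates, and the named features kept their call in 105 of 114 fits. The count of stage 7 top 100 features called higher, 47, was 22 with median ratios, 77 with a fixed total, 74 with no minimum fold and 6 with a log2 fold change above 2, where the quartiles of the list's log2 fold changes were 0.45 and 1.20. The count of the stage 7 top 1000, 333, was 181 with a log2 fold change above 2. Over all features 10018 were called higher and 7265 lower, 9140 and 8142 with median ratios and 13594 and 4934 with a fixed total. In the stage 7 top 1000, 333 were called higher and 256 lower, 279 and 302 with median ratios and 498 and 110 with a fixed total. Leaving out 1 library in turn gave 8169 to 10014 higher and 6140 to 7334 lower calls.

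The share of the 64-cell top 100 in the stage 7 libraries was 18.2%, 17.5% when the lists were ranked on replicate 2 alone, and 17.5% to 18.6% without 1 library. For lists of 50 and 200 it was 10.4% and 26.4%, and that of the stage 7 list in the 64-cell libraries, 18.1%, was 13.9% and 24.3%. For lists of 500 and 2000 the share of the 64-cell list at stage 7, 44.2%, was 37.3% and 52.9%, and that of the stage 7 list at the 64-cell stage, 42.1%, was 33.1% and 52.5%. A longer list holds more counts by construction.

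With a replicate block 10146 features were called higher and 7344 lower. CTELG00000029350.1 was then called lower (adjusted p = 0.00759, limma), against 0.0583 as reported and a range of 0.00759 to 0.296 over its 19 alternatives. Over all tested features, deviations of same-numbered libraries correlated between -0.0077 and 0.221 over the 10 pairs of stages. Between stage 7 and the 64-cell stage the correlation was 0.0049. The reported fit did not take the numbers as pairs. Whether the most abundant features share a replicate effect is not shown by a correlation over all features and was not tested. The 5 most abundant features of each library held 9.12% of replicate 1 and 6.62% of replicate 2 at the 64-cell stage. These shares were 9.98% and 6.37% at the gastrula, 8.56% and 4.66% at stage 4tt, 7.41% and 4.57% at stage 5, but 4.35% and 4.73% at stage 7. The alternatives that leave out a middle-stage library from the timing were chosen after seeing the data, and those of stages 4tt and 5 cannot move exit or entry at the gastrula. By the largest step, 62.7% of the lost and 91.5% of the gained top 100 features changed most at the gastrula, where first exit and first entry gave 86.4% and 76.3%. For lists of 50 and 200, first entry at the gastrula was 65.7% and 56.5%, and first exit was 88.6% and 86.1%. With 2 libraries per stage a loss of low values is not resolved.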

Other observations

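Some features ranked highest between the ends of the series. At the gastrula, stage 4tt or stage 5, 20 features ranked within the top 100 that were in neither the stage 7 nor the 64-cell top 100, and 427 did so for the top 1000. The 20 had medians of 54164 and 55382 in the gastrula libraries, of 44090 and 41285 in those of stage 4tt and of 39428 and 44086 in those of stage 5. Their medians were 29100 and 31963 in the stage 7 libraries, against 13177 and 13845 in the 64-cell libraries, and their median rank was 139.5 at stage 7 and 717.5 at the 64-cell stage. Many of them thus lay close outside the stage 7 list. The 427 held 8.49% ± 0.653 of the gastrula libraries (SD, n = 2), against 3.34% ± 0.0327 of the stage 7 libraries and 2.68% ± 0.0816 of the 64-cell libraries (SD, n = 2 each).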
